A study of Mus musculus with 4 samples.

Results

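Lysosomal proteases and hydrolases were followed in tumour-bearing mouse eyes as a list of 38 genes, named by symbol. The list holds 10 peptidases, 7 glycosidases, 3 sulfatases, 6 lipid hydrolases and cofactors, 6 membrane proteins, 5 subunits of the proton pump and 1 transcription factor, Tfeb. Of these 38 genes, 37 were detected and tested among 13148 genes in all. In eyes of splenectomized mice 36 of the 37 had a higher mean signal than in eyes of intact mice, and the median fold was 1.33. No gene passed the threshold after adjustment over all genes, so the differences are given as values.

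The labels give the mice as C57BL/6, male and female, over 7 weeks of age. Both groups received 10000 E.G7-OVA cells that express luciferase, placed between cornea and iris in the anterior chamber, and eyes of both were taken on day 15. The E.G7-OVA line derives from the mouse T cell lymphoma EL4 and makes chicken ovalbumin. The intact group had no surgery and the splenectomized group had its spleen removed before the injection, with 2 arrays per group. Tumour-free eyes and sham-operated mice were not analysed here. Each array measured total RNA of a whole eyeball, so host tissue, infiltrating cells and lymphoma cells contribute to every signal. In such bulk samples, fewer cells of a type and less RNA per cell cannot be told apart. The labels number the arrays 1 and 2 within each group but do not number animals. The p-values therefore measure the spread between these samples.

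Lysosomes are acidic compartments in which proteins, glycans and lipids delivered by endocytosis, phagocytosis or autophagy are broken down. A proton pump, the V-type ATPase, acidifies them, most soluble enzymes reach them through a mannose 6-phosphate tag, and heavily glycosylated membrane proteins line their inner face. Macrophages are rich in lysosomes because they digest what they engulf, and the retinal pigment epithelium digests shed photoreceptor tips in the same way. TFEB, the factor encoded by Tfeb, and its relatives TFE3 and MITF bind a short palindrome called the CLEAR element in the promoters of many lysosomal genes.

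The arrays differed in the amount of eye tissue transcripts they carried. Of 45101 probe sets, between 53.2% (intact replicate 1) and 58.6% (intact replicate 2) were called Present. Photoreceptor, lens and pigment epithelium markers, 17 genes detected in all, had signals lower on intact replicate 1 than on intact replicate 2 for 17 of 17, with a median log2 difference of 2.08. All 17 were also lower on splenectomized replicate 2 than on splenectomized replicate 1, by a smaller median of 0.53, and none separated the groups. Over all detected genes the intact pair spread more, with an SD of the log2 difference over genes of 0.745, than the splenectomized pair, with 0.408. Xist, the transcript of the inactive X chromosome, had signals of 6.3 to 21.3, while the Y-linked Eif2s3y had 138 and 209 on the intact arrays and 299.5 and 274 on the splenectomized arrays. The Xist probe set was called Present on 3 arrays, and the median signal of Absent probe sets was 6.1. Lymphoma cells contribute to these signals as well as host tissue, so the sex of the mice was not read from them. The labels' mention of female mice was not tested.

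The comparison asks how the transcripts of an eye with an intraocular tumour differ when the spleen was removed. In limma, with Benjamini-Hochberg adjustment over 13148 genes, 0 members had an adjusted p under 0.05 (smallest adjusted p = 0.212), as had 0% of all genes (smallest adjusted p = 0.158). At an unadjusted p under 0.05, 18 of 37 members (48.6%) were higher in splenectomized mice, beside 6.66% of all genes. None of the 37 was lower at that level, beside 2.31% of all genes. The signals of the groups did not overlap, with the splenectomized pair higher, for 26 of 37 members (70.3%), beside 21.7% of all genes, and with it lower for 1 member, beside 19.7%. A mean signal higher by any amount was seen for 36 members, beside 55.1% of all genes. The median log2 fold change of the members was 0.41, with quartiles of 0.19 and 0.60, and that of all genes was 0.05.

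With 2 arrays per group, single arrays carried weight. Without intact replicate 1, the array low in eye tissue transcripts, 14 members were higher at an unadjusted p under 0.05, beside 6.94% of all genes. The members' median log2 fold change was then 0.33, while that of all genes was -0.04, and 4 members passed after adjustment in limma, beside 2.06% of all genes. Without intact replicate 2, 23 members were higher and 1 lower at an unadjusted p under 0.05, beside 23.4% of all genes higher, and the medians were 0.50 and 0.10. In that fit 14 members passed after adjustment, beside 21.5% of all genes, so the larger counts went with a larger share of all genes. Without splenectomized replicate 1 or 2, 5 members were higher at an unadjusted p under 0.05, beside 1.96% and 2.49% of all genes, and the members' median was 0.41 and 0.48. Such fits take their spread from the remaining pair alone.

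**Figure D1:**
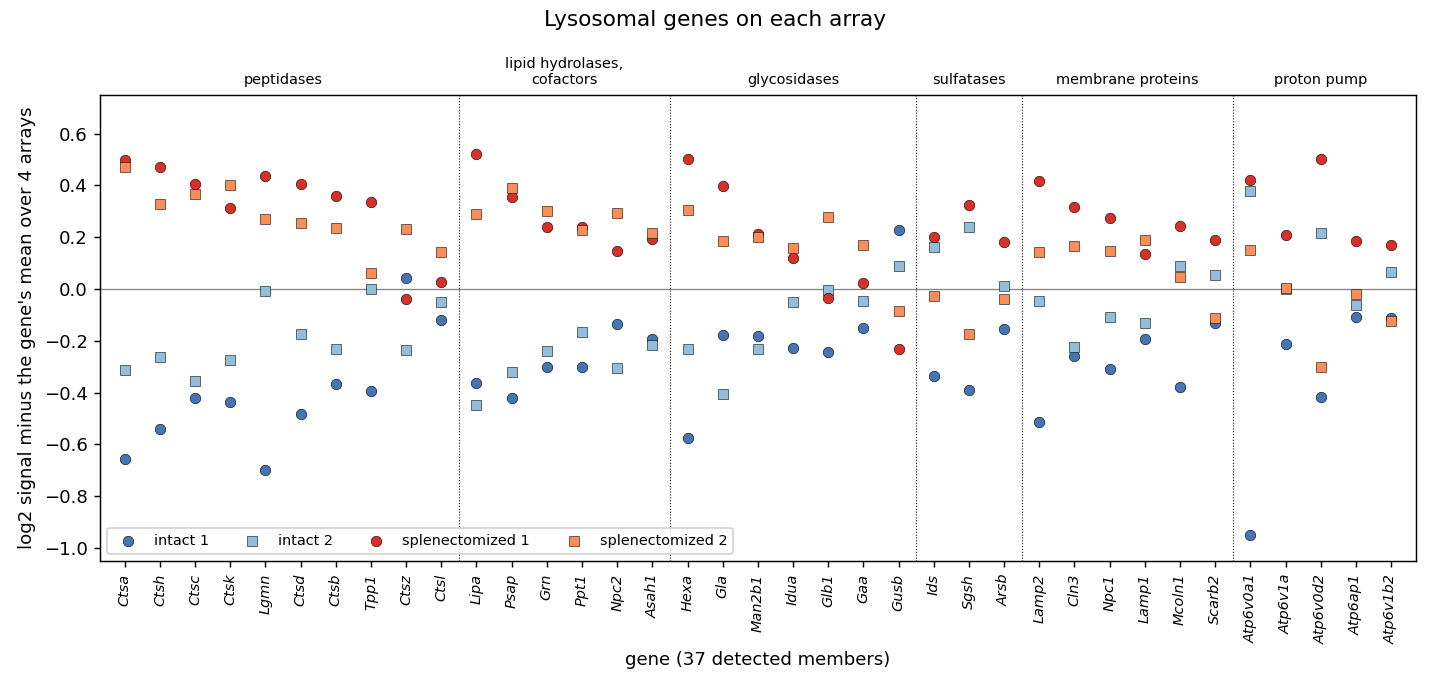
Each point is the log2 signal of 1 of 37 detected members on 1 array after centring on that gene's mean, ordered by role and, within a role, by log2 fold change. The splenectomized arrays (red, orange) lie above both intact arrays (blue) for 26 genes, with Gusb the only gene in the opposite order.

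Peptidases had the largest median difference of the 6 role groups tested. All 10 had higher mean signals in splenectomized mice, beside 55.1% of all genes. At an unadjusted p under 0.05 in limma, 7 were higher, beside 6.66% of all genes. The groups did not overlap for 9, with the splenectomized pair higher, beside 21.7% of all genes. The median log2 fold change of the peptidases was 0.68, with a range of 0.17 to 0.97. In the sentences that follow, the signals are linear scaled intensities of each gene's brightest detected probe set, with replicate 1 before replicate 2. They are not comparable between genes.

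Ctsa encodes cathepsin A, a serine carboxypeptidase that also protects neuraminidase and beta-galactosidase in a complex. Its signals were 379.8 and 482 on the intact arrays and 845 and 828 on the splenectomized arrays. Ctsc, which encodes cathepsin C, the activator of granule serine proteases, was at 2681 and 2804 in intact and 4752 and 4627 in splenectomized mice. Ctsh, which encodes the aminopeptidase cathepsin H, was at 913 and 1107 against 1839.8 and 1665. For all 3 genes both splenectomized arrays lay above both intact arrays, and each gap between groups was wider than the gap within either pair. The log2 fold change of Ctsa was 0.97 (95% confidence interval 0.55 to 1.38), a 1.96-fold difference, with an adjusted p of 0.212 in limma. That of Ctsc was 0.77 (0.44 to 1.11), 1.71-fold, also with an adjusted p of 0.212. Ctsh had a value of 0.80 (0.41 to 1.19), 1.74-fold, with an adjusted p of 0.259. None of these 3 intervals held 0, and none of the 3 genes passed over all genes.

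The other cathepsins divided into a larger and a smaller difference. Ctsk, the collagen-degrading cathepsin of osteoclasts, was at 226 and 253 in intact and 380.5 and 404 in splenectomized mice (1.64-fold, unadjusted p = 0.00455). Ctsb, an abundant endo- and exopeptidase, was at 2488 and 2729 against 4114 and 3777 (1.51-fold, unadjusted p = 0.00775). Ctsd, the main aspartic protease of lysosomes, was at 1206 and 1494 against 2229 and 2008 (1.58-fold, unadjusted p = 0.00932). These 3 separated the groups, as did Lgmn and Tpp1 with wider spreads. Lgmn encodes legumain, an asparaginyl endopeptidase that matures other cathepsins, and had 436 and 705 in intact against 958 and 854 in splenectomized mice. Its standard error of 0.25 on the log2 scale was the largest among the peptidases, and its log2 fold change went from 0.36 without intact replicate 1 to 1.05 without intact replicate 2. Tpp1, the tripeptidyl peptidase lost in a neuronal ceroid lipofuscinosis, was at 614 and 808 against 1018 and 842 (1.32-fold, unadjusted p = 0.0941).

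Ctsl and Ctsz had the smallest differences of the peptidases. Ctsl, the broadly expressed endopeptidase cathepsin L, was at 4710.5 and 4945 in intact and 5214 and 5656 in splenectomized mice, 1.13-fold higher with no overlap (unadjusted p = 0.29). Ctsz, a carboxypeptidase, was at 3614 and 2982 against 3417 and 4120.2 on its brightest probe set, and the groups overlapped. The remaining pair of Ctsz probe sets gave another picture. One had 1352 and 1353 in intact against 1835 and 1893 in splenectomized mice, and the other had 1118 and 1079 against 1639 and 1578. On both of them the groups lay apart, with log2 fold changes of 0.46 and 0.55 beside 0.19 on the brightest. The choice of probe set therefore sets the value of Ctsz.

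Lipid hydrolases and their cofactors all lay in the same direction. All 6 genes were higher in splenectomized mice at an unadjusted p under 0.05 in limma, beside 6.66% of all genes. The groups did not overlap for any of the 6, beside 21.7% of all genes with the splenectomized pair higher. The median log2 fold change of these 6 genes was 0.50, with a range of 0.41 to 0.81. Taken without sign, the log2 difference between the intact arrays reached 0.17 (Npc2) and that between the splenectomized arrays 0.23 (Lipa), both below the smallest fold change of the group.

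Lipa encodes lysosomal acid lipase, which frees cholesterol and fatty acids from lipoproteins. Its signals were 306 and 288 in intact and 563 and 481 in splenectomized mice. Psap encodes prosaposin, the precursor of the saposins that present glycolipids to hydrolases, and was at 2878 and 3085 against 4932 and 5045. Grn encodes progranulin, a secreted and lysosomal protein cut into granulins, and was at 2429.8 and 2534 against 3528 and 3679. Each of these genes was higher on both splenectomized arrays, with little spread within the pairs. The log2 fold changes in limma were 0.81 ± 0.15 for Lipa, 0.74 ± 0.14 for Psap and 0.54 ± 0.13 for Grn, where the errors are standard errors. The folds were 1.75, 1.67 and 1.45, and the adjusted p-values 0.228, 0.228 and 0.357. Lipa's 2 dimmer probe sets gave smaller log2 fold changes of 0.46 and 0.53.

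Ppt1, a thioesterase that removes palmitate from proteins, was at 240.5 and 264 in intact and 350.5 and 348 in splenectomized mice (1.38-fold). Npc2, the soluble carrier that hands cholesterol to the membrane protein NPC1, was at 2983 and 2648 against 3625 and 4009 (1.36-fold). Asah1, which encodes acid ceramidase, was at 890.3 and 877 against 1163 and 1181 (1.33-fold). All 3 were higher on each splenectomized array, and their unadjusted p-values were 0.0213, 0.0295 and 0.0177.

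Glycosidases were mixed. Of 7 genes, 6 had higher and 1 had lower mean signals in splenectomized mice, 3 had an unadjusted p under 0.05, and the median log2 fold change was 0.28. Hexa, the alpha subunit of beta-hexosaminidase, which degrades the ganglioside GM2, was at 635 and 805 in intact and 1335 and 1166 in splenectomized mice. Man2b1, which encodes lysosomal alpha-mannosidase, was at 742 and 717 against 975 and 969. Gla, the X-linked gene of alpha-galactosidase A, was at 243 and 207 against 361 and 312. The groups lay apart for these 3 genes, with log2 fold changes of 0.80, 0.41 and 0.58 (limma, adjusted p = 0.304, 0.461 and 0.467).

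Gusb, the gene of beta-glucuronidase, went the other way. Its signals were 1203 and 1091 in intact and 875 and 968 in splenectomized mice, with both splenectomized arrays below both intact arrays. The signal was 1.24-fold higher in intact mice, with a log2 fold change of -0.32 (95% confidence interval -0.66 to 0.03) and an unadjusted p of 0.064. A dimmer probe set of Gusb gave -0.33, and the direction was the same when any 1 array was left out. Among the remaining glycosidases, Idua (alpha-L-iduronidase), Glb1 (beta-galactosidase) and Gaa (acid alpha-glucosidase, which degrades glycogen) had log2 fold changes of 0.28, 0.24 and 0.19. The groups overlapped for Glb1, with 192 and 226 in intact and 221 and 275 in splenectomized mice. Idua was at 124 and 140.3 against 158 and 162, and Gaa at 322 and 347 against 363 and 403, both without overlap.

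The 3 sulfatases, which remove sulfate from glycosaminoglycans, did not separate the groups, as was so for 7699 of all 13148 genes. Ids, which encodes iduronate 2-sulfatase, was at 485 and 684 in intact and 704 and 600.1 in splenectomized mice. Arsb, which encodes arylsulfatase B, was at 322 and 362 against 407 and 349. Sgsh, which encodes the N-sulfoglucosamine sulfohydrolase, was at 43.9 and 68.0 against 72.0 and 51.1. In each case the splenectomized replicate 2 lay below intact replicate 2, and intact replicate 1 was the lowest array. The log2 fold changes were 0.17, 0.14 and 0.15, with confidence intervals from -0.36 to 0.71, -0.26 to 0.54 and -0.75 to 1.05, so differences of either sign lie within them. The median log2 difference between the intact arrays, 0.50, exceeded the median difference between groups, 0.15, and the eye tissue markers differed between these arrays in the same direction. Their part in these values was not tested.

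Membrane proteins had higher mean signals in splenectomized mice for 6 of 6 genes. The median log2 fold change was 0.37, and 2 had an unadjusted p under 0.05. Lamp1 and Lamp2 encode the most abundant glycoproteins of the lysosomal membrane. Lamp2 was at 1352 and 1872 in intact and 2581 and 2133 in splenectomized mice, 1.47-fold higher (unadjusted p = 0.0433). Lamp1 was at 1850.5 and 1933 against 2323 and 2414, 1.25-fold higher (unadjusted p = 0.0473). Both genes separated the groups, Lamp1 with tight pairs and Lamp2 with a wider spread within its pairs. Npc1, the membrane protein that exports cholesterol, was at 166 and 192 against 249 and 228 (1.34-fold, unadjusted p = 0.056). Cln3, a transmembrane protein lost in juvenile neuronal ceroid lipofuscinosis, was at 72.5 and 74.2 against 108 and 97.3 (log2 fold change 0.48, unadjusted p = 0.0733). Mcoln1, the calcium channel of the lysosomal membrane, and Scarb2, a membrane protein that carries a hydrolase to lysosomes, overlapped between groups. Mcoln1 was at 111 and 154 against 171 and 149, and Scarb2 at 840.0 and 956 against 1050.5 and 853.

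The proton pump members differed little beside their spread. None of 5 had an unadjusted p under 0.05, beside 6.66% of all genes higher and 2.31% lower at that level. Their median log2 fold change was 0.20, although all 5 mean signals were higher in splenectomized mice. Atp6v1a, the catalytic subunit of the cytosolic V1 sector, was at 860.1 and 998 in intact and 1152 and 1000.3 in splenectomized mice (log2 fold change 0.21, unadjusted p = 0.215). Atp6ap1, an accessory subunit encoded on the X chromosome, was at 1145 and 1182 against 1401 and 1218 (0.17, unadjusted p = 0.269). Both separated the groups by a narrow margin between the second arrays. Atp6v0a1, a subunit of the membrane V0 sector, was at 27.4 and 68.7 against 70.9 and 58.8, and its probe set was called Absent on intact replicate 1. Atp6v0d2, a V0 subunit known from osteoclasts, was at 46.5 and 72.2 against 87.9 and 50.4. Atp6v1b2, a V1 subunit, was at 487 and 551 against 593 and 484. All 3 overlapped between groups. Their standard errors were 0.49, 0.40 and 0.16 on the log2 scale, and their signs changed when intact replicate 1 was left out (-0.090, -0.12 and -0.040).

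Pump genes outside the list had a smaller median log2 fold change than the 5 pump members, 0.11 over 12 tested genes. With the 5 members, 17 pump genes were tested. Of these, 14 had higher mean signals in splenectomized mice, beside 55.1% of all genes, and 3 had lower ones. In limma 0 had an unadjusted p under 0.05, beside 6.66% of all genes higher and 2.31% lower. With 17 genes, this count does not set the pump apart from all genes. After adjustment 0 passed (smallest adjusted p = 0.575), and the median log2 fold change was 0.17. The smallest unadjusted p, 0.0593, was that of Atp6v1d, at 455 and 681 against 886 and 757, followed by Atp6v1e1 with 0.11. Among those with lower means, Atp6v0a2 and Atp6v1h had log2 fold changes of -0.24 and -0.12.

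**Figure D2:**
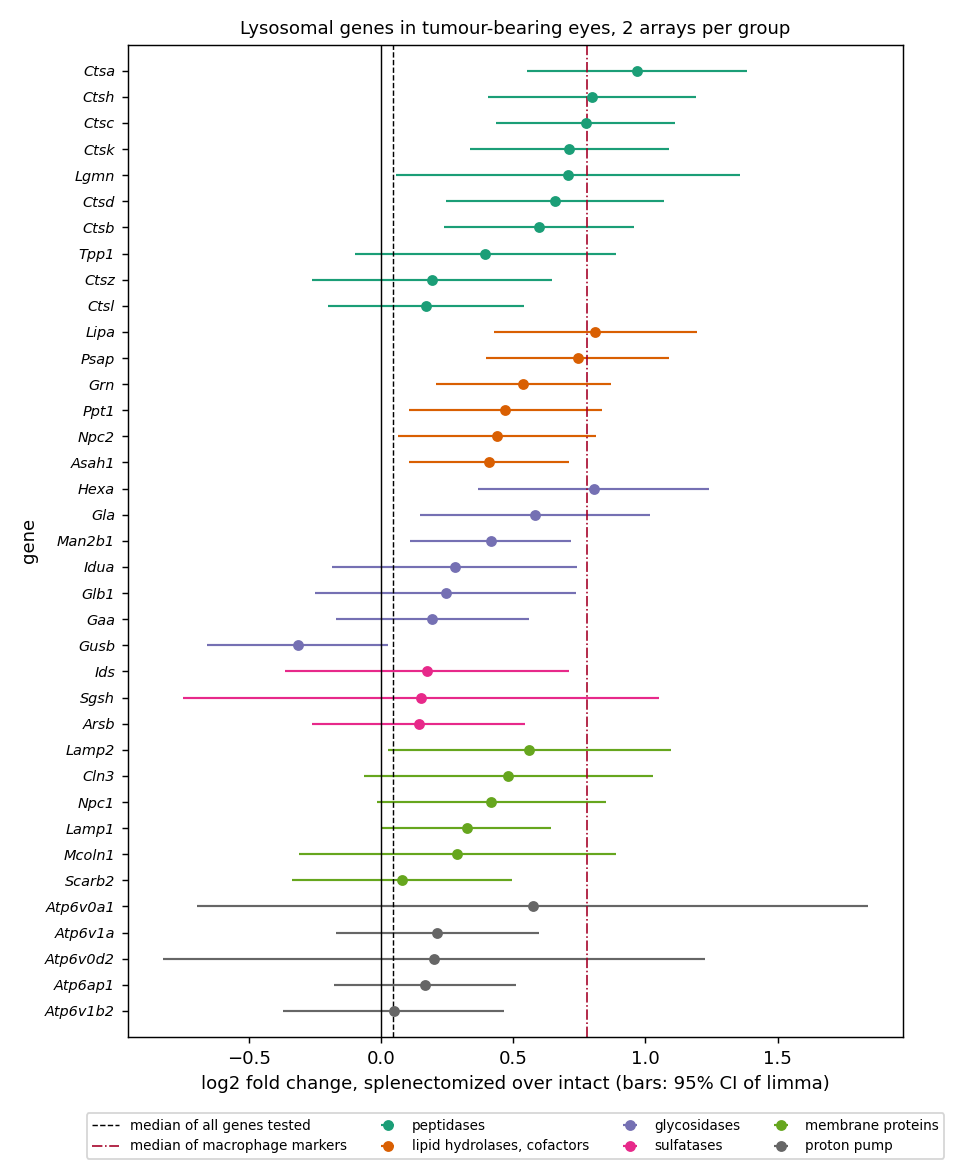
Points are log2 fold changes of splenectomized over intact mice for the 37 detected members, coloured by role, and bars are 95% confidence intervals of limma from 2 arrays per group. The intervals of 18 genes lie above 0, with the dashed line marking the median of all genes (0.05) and the dash-dotted line that of the macrophage markers (0.78).

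The members did not move as 1 block from array to array. To follow a list across arrays, each gene was centred on its own average log2 signal, and the centred values were averaged over the list into a score. For the peptidases it was -0.41 and -0.19 on the intact arrays and 0.32 and 0.28 on the splenectomized arrays. For the lipid hydrolases and cofactors it was -0.29 and -0.28 against 0.28 and 0.29. These lists put both splenectomized arrays well above both intact arrays. Glycosidases, with -0.19 and -0.13 against 0.14 and 0.17, and membrane proteins, with -0.30 and -0.06 against 0.26 and 0.10, also separated the groups. The score of the proton pump was -0.36 and 0.12 against 0.30 and -0.06, and that of the sulfatases -0.29 and 0.14 against 0.24 and -0.08. Intact replicate 2 lay above splenectomized replicate 2 in both, the order in which the eye tissue markers stood (0.77 and 0.03). The 12 tested pump subunits outside the list scored -0.08 and -0.05 against 0.09 and 0.04, without overlap between the groups. The difference between the peptidase score and that of the 5 pump members was -0.05 and -0.31 on the intact arrays. On the splenectomized arrays it was 0.02 and 0.33. The group means were -0.18 ± 0.19 and 0.18 ± 0.22 (SD, n = 2 each). Those groups did not overlap. An exact permutation test over the 4 arrays has 6 assignments and cannot reach a two-sided p of 0.05, so no p is given for these scores.

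Across the 37 members, 30 had higher signals on intact replicate 2 than on intact replicate 1, and 25 had higher signals on splenectomized replicate 1 than on splenectomized replicate 2. The log2 differences within the pairs correlated across members with Pearson's r of 0.55 and Spearman's rho of 0.55, beside 0.44 and 0.51 across all genes. These are descriptions over genes measured on the same 4 arrays. The eye tissue markers lie in the same order on these arrays, and their part in the members' spread was not tested.

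Markers of macrophages moved in the direction of the members. Of 12 listed markers, 10 were tested, and all 10 had higher mean signals in splenectomized mice, beside 55.1% of all genes. At an unadjusted p under 0.05 in limma, 8 were higher, beside 6.66% of all genes. The markers' median log2 fold change was 0.78. Their summed signal was 13386 and 11284 in intact against 20283 and 21301 in splenectomized mice, and the dimmest of the 10 was Itgam, at 36.9 to 65.2. Mpeg1, the perforin-like protein of macrophages, was at 1292 and 1304 against 2699 and 2812. Csf1r, the receptor for the macrophage growth factor CSF1, was at 1844 and 1847 against 3159 and 3284. The macrophage score was -0.41 and -0.40 in intact and 0.40 and 0.41 in splenectomized mice. Subtracting it from the score of all members left 0.10 and 0.29 in intact and -0.14 and -0.25 in splenectomized mice. The members' signals therefore differed less between groups than those of the macrophage markers did. Macrophages and other cells share lysosomal genes, and how much of the members' difference lies in macrophages was not tested.

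Fibroblast markers had higher mean signals as well, for 6 of 6 genes, beside 55.1% of all genes, with a median log2 fold change of 0.51. At an unadjusted p under 0.05 in limma, 4 were higher, beside 6.66% of all genes. The summed signals of fibroblast markers were 16988 and 15169 against 21508 and 22925. T cell markers, which the lymphoma may share with host T cells, had lower mean signals for 7 of 9 genes, beside 5905 of all 13148. Their median was -0.14 on the log2 scale, and their summed signals were 15797 and 11063 against 10941 and 12713. At an unadjusted p under 0.05, 1 of the 9 was higher and 0 were lower, beside 6.66% and 2.31% of all genes. That gene was Cd2, an adhesion receptor of T and natural killer cells, at 44.0 and 34.8 in intact against 130.3 and 140.2 in splenectomized mice, 3.45-fold higher and opposite to most of the list. Surface epithelium markers had a median of 0.01. The summed signals of photoreceptor markers were 2233 and 9678 in intact against 8589.8 and 5512 in splenectomized mice. Those of lens markers were 12167 and 27192 against 28217 and 24660.1, and those of pigment epithelium markers 713 and 3593 against 2893 and 2006. Unlike the macrophage and fibroblast sums, these 3 overlapped between groups. The part of any of these cell types in the members' values was not tested.

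**Figure D3:**
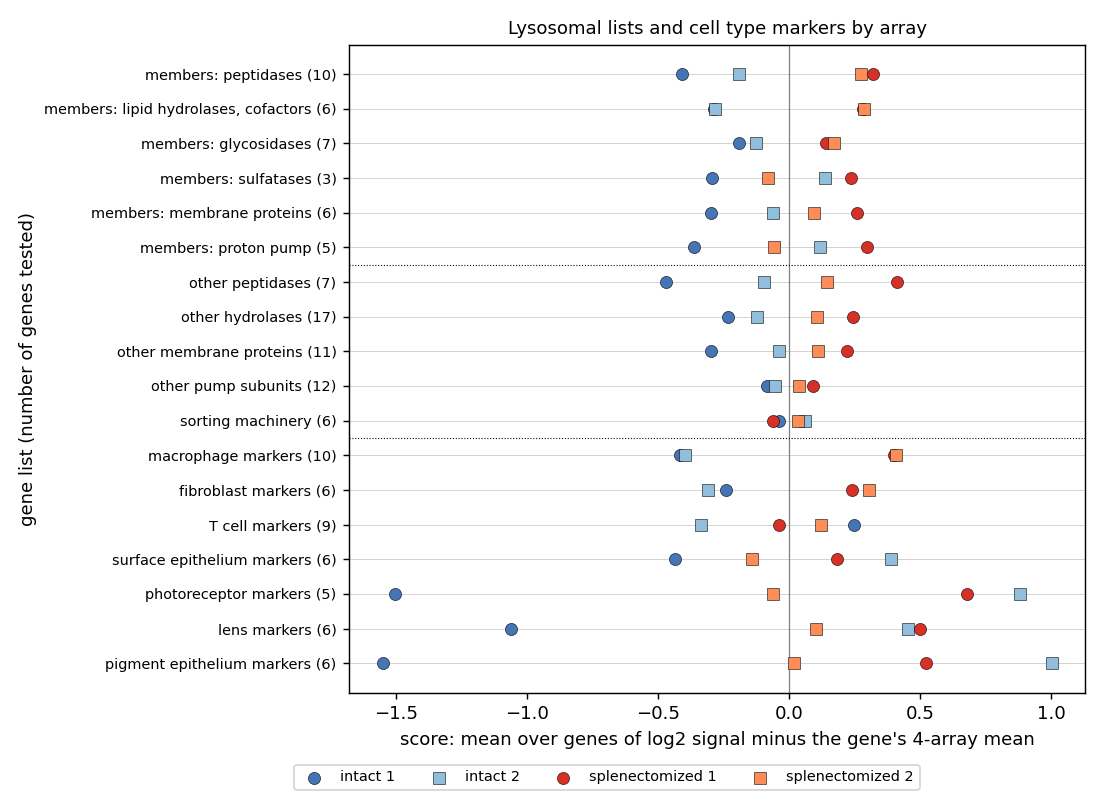
Each point is the score of a gene list on 1 array, the average of the log2 signals of its tested genes after each gene was centred on its own mean. Both splenectomized arrays lie above both intact arrays for macrophage and fibroblast markers. They do so for every lysosomal list shown except the member sulfatases, the member proton pump and the sorting machinery. Photoreceptor, lens and pigment epithelium markers place intact replicate 1 far below the other arrays.

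Tfeb, the transcription factor on the list, could not be compared. Its probe set was called Absent on all 4 arrays, with signals of 108.8 and 100.1 in intact and 102 and 98.4 in splenectomized mice. Of the other regulators, Tfe3 was at 147 and 125 against 223 and 213, 1.60-fold higher with no overlap (unadjusted p = 0.0122, adjusted p = 0.417 in limma). Mitf overlapped between groups, with 66.4 and 112 against 133 and 109. Among 13 tested regulators, which include subunits of the nutrient-sensing kinase complex on the lysosomal surface, the median log2 fold change was 0.21. At an unadjusted p under 0.05 in limma, 1 of the 13 (7.69%) was higher and 0 lower. These counts lay close to the shares of all genes, 6.66% and 2.31%. Lamtor5, a scaffold subunit on the lysosome, came second by p with 0.21, and the lowest were Lamtor3 with -0.13 and the kinase Mtor with -0.12.

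The promoters of the members were read for the letters that these factors bind, because the members tended to differ in the same direction. Windows of 250 bases before and 50 bases after the start of each gene came from RefSeq on the mouse build GRCm38.p6, with 38 windows for 32 of the 38 members. Ctsb, Ctsh, Asah1, Npc1, Atp6v0d2 and Atp6v1b2 had no window. The core of the CLEAR element, TCACGTGA, was present in 6 of 38 member windows (15.8%), beside 0.974% of all 32851 windows. It occurred in Ctsa, Ctsd, Gla, Cln3, Mcoln1 and Atp6v1a. The sites upstream of the start or spanning it are shown as 30 bases on the strand of the gene, with TCACGTGA in capitals.
Ctsa, chr2:164833749-164833778, + strand: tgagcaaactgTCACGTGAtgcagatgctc
Ctsd, chr7:142387908-142387937, - strand: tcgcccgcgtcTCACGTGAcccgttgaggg
Gla, chrX:134601182-134601211, - strand: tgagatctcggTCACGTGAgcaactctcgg
Gla, chrX:134601215-134601244, - strand: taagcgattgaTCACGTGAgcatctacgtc
Cln3, chr7:126583340-126583369, - strand: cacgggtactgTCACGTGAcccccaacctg
Mcoln1, chr8:3500462-3500491, + strand: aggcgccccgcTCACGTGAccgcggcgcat
Atp6v1a, chr16:44139373-44139402, - strand: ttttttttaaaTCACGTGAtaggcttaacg

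The 6 genes with the core differed in their values. Ctsa, Ctsd and Gla had log2 fold changes of 0.97, 0.66 and 0.58 with unadjusted p under 0.05, and Cln3, Mcoln1 and Atp6v1a had 0.48, 0.29 and 0.21 without. The shorter E-box CACGTG, which lies within every CLEAR core, was present in 12 of 38 windows (31.6%), beside 7.15% of all windows. It added Ctsl, Gaa, Glb1, Lamp1, Lgmn and Sgsh. The 12 genes with an E-box had a median log2 fold change of 0.31, and the 19 tested genes with a window but no E-box had 0.44, the higher median of the pair. For the CLEAR core the order was reversed, with 0.53 for the 6 genes with it and 0.40 for the 25 tested genes without. A match says only that the letters are in the window, and no match says only that they are not.

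Lamp1 held 4 E-boxes, starting at positions -61, -45, -28 and -15 from its start, the densest group among the members. The 250 bases before its start follow, with CACGTG in capitals.
Lamp1, chr8:13158911-13159160, + strand: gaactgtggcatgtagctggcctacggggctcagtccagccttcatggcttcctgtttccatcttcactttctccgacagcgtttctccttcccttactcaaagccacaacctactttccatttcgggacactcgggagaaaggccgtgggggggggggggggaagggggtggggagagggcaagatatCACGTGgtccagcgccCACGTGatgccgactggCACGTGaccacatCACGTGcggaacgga
Ctsd held an E-box at each of 2 places in the same span, of which the second is the CLEAR core shown above.
Ctsd, chr7:142387828-142388077, - strand: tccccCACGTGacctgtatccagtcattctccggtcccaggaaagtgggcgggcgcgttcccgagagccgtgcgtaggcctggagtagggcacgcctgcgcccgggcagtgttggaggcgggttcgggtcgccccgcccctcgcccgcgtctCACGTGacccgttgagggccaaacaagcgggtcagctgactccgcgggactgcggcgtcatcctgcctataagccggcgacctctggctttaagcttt

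Motifs of 3 other factors were read on both strands of the same windows. The M-box TCATGTGA, bound by MITF, was present in 4 of 38 (10.5%), beside 0.986% of all windows, in Gla, Grn, Ppt1 and Tpp1. The letters GAGGAAGT, a form of the site of PU.1, the factor of myeloid cells, were present in 3 of 38 (7.89%), beside 3.20%, in Ctsc, Gla and Gusb. The interferon gamma activated sequence TTCNNNGAA was present in 2 of 38 (5.26%), beside 8.30%, in Cln3 and Ctsc. Among the genes with GAGGAAGT, the log2 fold change was 0.77 for Ctsc, 0.58 for Gla and -0.32 for Gusb. The Ctsc span is shown because this gene had the second smallest p of the members, with the reverse complement ACTTCCTC in capitals.
Ctsc, chr7:88277835-88278084, + strand: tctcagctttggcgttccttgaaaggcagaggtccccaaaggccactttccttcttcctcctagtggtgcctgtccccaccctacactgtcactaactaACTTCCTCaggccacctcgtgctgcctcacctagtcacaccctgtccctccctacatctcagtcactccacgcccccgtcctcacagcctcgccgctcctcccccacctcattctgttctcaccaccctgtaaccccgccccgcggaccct

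Many members were measured by more than 1 probe set, which gives a second reading of the same RNA. Of 91 probe sets with a member's symbol, 74 were detected, and 24 genes had several. Beside the brightest ones, 37 further probe sets were detected, and 35 of them had a log2 fold change of the same sign as the brightest of their gene. The exceptions were a probe set of Arsb (-0.13) and one of Ctsl (-0.15), whose highest signals were 26.8 and 41.0. Fitted over 22729 detected probe sets, 35 of the members' 74 were higher at an unadjusted p under 0.05, beside 5.61% of all probe sets, and 0 were lower, beside 2.78%. Of the 74, 0 passed after adjustment (smallest adjusted p = 0.239). A dimmer probe set of Gla had a log2 fold change of 1.39 beside 0.58, with signals of 15.7 and 24.7 against 57.0 and 47.0, and was called Present on 2 of 4 arrays.

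**Figure D4:**
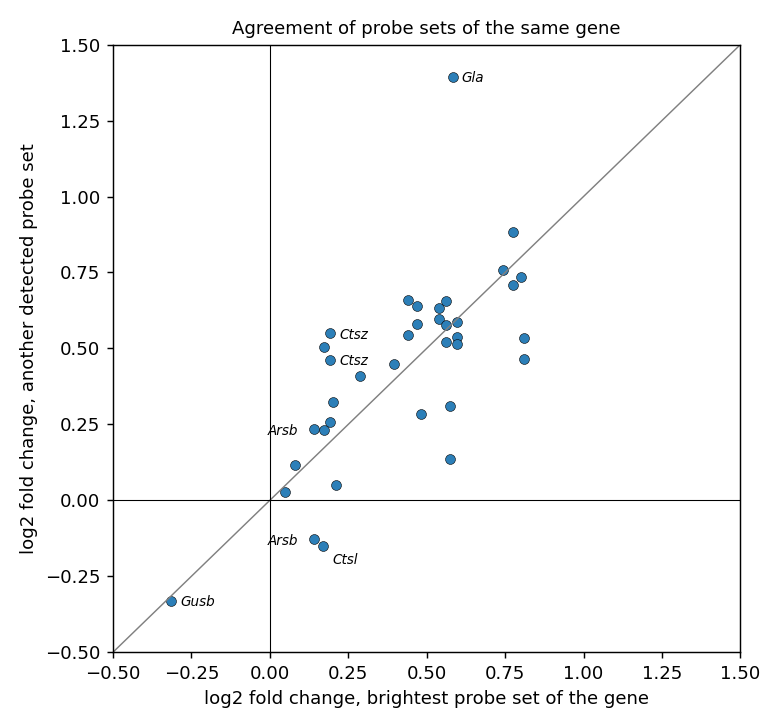
Each point is a further detected probe set of a member, with its log2 fold change on the vertical axis and that of the gene's brightest probe set on the horizontal axis. Of 37 points, 35 have the same sign on both axes, and the exceptions belong to Arsb and Ctsl.

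Lysosomal genes outside the list were read as a second set of 77, of which 70 were tested. Of these, 55 had higher mean signals in splenectomized mice, beside 55.1% of all genes, and 15 had lower ones. At an unadjusted p under 0.05 in limma, 13 (18.6%) were higher, beside 6.66% of all genes. None was lower at that level, beside 2.31%. After adjustment 0 passed (smallest adjusted p = 0.158). The groups did not overlap, with the splenectomized pair higher, for 32 of 70 (45.7%), beside 21.7% of all genes. On the log2 scale the set had a median of 0.26, between those of the members (0.41) and of all genes (0.05). Its peptidases and hydrolases had medians of 0.56 over 7 and 0.35 over 17 genes. Of them, 3 and 5 were higher at an unadjusted p under 0.05, beside 6.66% of all genes. The membrane proteins had a median of 0.25 over 11 genes, with 3 higher at that level, and the pump subunits 0.11 over 12, with 0.

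Cd68, the macrophage sialomucin of late endosomes, had the smallest p of these genes. Its signals were 456 and 435 in intact and 894 and 934 in splenectomized mice, 2.05-fold higher with tight pairs (unadjusted p = 0.000371, adjusted p = 0.158 in limma). Clcn7, the chloride-proton exchanger of lysosomes, was at 165 and 199 against 272 and 284 (1.53-fold). Its partner Ostm1 and Tmem192, also membrane proteins, had log2 fold changes of -0.02 and -0.05. Ctsw, a cathepsin of cytotoxic lymphocytes, was at 44.2 and 54.2 against 161 and 133, 2.99-fold higher, and its probe set was called Absent on intact replicate 1. Scpep1, a serine carboxypeptidase, was at 986 and 983 against 1671 and 1532 (1.63-fold). Both separated the groups, whereas Ctso, a further cathepsin, overlapped and had a log2 fold change of -0.11.

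Among the other hydrolases, Sumf1, the enzyme that activates sulfatases, was at 143 and 160.3 against 262 and 210.4 (1.55-fold, unadjusted p = 0.0213). Gm2a, the activator protein for the breakdown of ganglioside GM2, was at 788 and 876 against 1093 and 1064 (1.30-fold, unadjusted p = 0.0314). Manba, which encodes beta-mannosidase, had a log2 fold change of -0.07. The 6 genes that tag or sort lysosomal enzymes differed little, with a median of -0.08 and a range from -0.20 (Gnptg) to 0.33 (Sort1). M6pr, the cation-dependent mannose 6-phosphate receptor, had -0.13, and Gnptab, which encodes the tagging enzyme, had 0.01. None of these 6 separated the groups, beside 7699 of all 13148 genes that did not.

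Inhibitors of cathepsins had higher mean signals for 4 of 4 genes, beside 55.1% of all genes, with a median log2 fold change of 0.49. Cstb, the cytosolic inhibitor cystatin B, was at 4317 and 4057 in intact and 5957 and 5612 in splenectomized mice (1.38-fold, unadjusted p = 0.0215). Cst6, a secreted cystatin, was at 31.0 and 27.5 against 100.2 and 37.4, so most of its difference came from splenectomized replicate 1 (unadjusted p = 0.0984). Cstb and Ctsb, inhibitor and enzyme, were thus both higher on each splenectomized array.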

How the data were processed

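Biotinylated RNA made from 500 ng of total RNA was hybridized to Affymetrix mouse arrays, per the labels' protocols. The deposited values are linear signal intensities with Present or Absent calls, made with GCOS 1.4 and MAS5, per the submitters' processing notes. Their scaling target, scan dates and batches are not given in the sources used here. The mean signal after trimming 2% at each end was 150 on every array.

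Signals were taken to log2, with 0 raised to 0.1. The platform annotation named the probe sets: 34945 had 1 symbol, 932 several, 9160 none and 64 were controls. A gene was represented by its one-symbol probe set Present on at least 2 of 4 arrays with the highest mean log2 signal, which left 13148 of 18193 genes. Listed genes without such a probe set were not analysed here. limma 3.58.1 under R 4.3.3 (lmFit, eBayes with an intensity trend, 2 residual degrees of freedom) gave two-sided p-values, adjusted over all genes by Benjamini-Hochberg. Precision is limited by having 2 arrays per group.

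The members, lists and tests were chosen with earlier results of these data known. Per role list, values on each array were named for the 3 smallest p, members against their list's direction and Tfeb, and for further members where space allowed. Of other lysosomal genes, up to 2 per direction and list were named. The labels do not say that replicate numbers pair animals, so the numbers were not taken as pairs. Signals of same-numbered arrays deviated from their group means with a correlation of -0.44 across genes. The fit was tested on simulated data, in which 50 genes were changed 2-fold. After adjustment it recovered 14 of these 50 with moderated SDs and 5 of 50 with each gene's own SD. Changes of 2-fold were thus missed more often than found, and the largest member fold was 1.96. Alternatives covered scaling, low signals, detection filters, moderation, pairing, probe set choice and leaving out each array. Figures used matplotlib 3.10.9 under Python 3.11.15.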

Additional observations from a re-analysis of the deposited data

How the results depend on the processing

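Over 11 alternatives that kept all 4 arrays, none of 406 member values changed sign, and the members' median log2 fold change stayed between 0.37 and 0.43. With 2 arrays per group, dropping the intensity trend or adding a block leaves every fold change as it was. The signs of those fits were therefore fixed in advance, and only their p-values could differ. The detection filters can change a value only through the choice of probe set. The count of members at an unadjusted p under 0.05 was 13 to 19 except under the blocks. Under quantile normalization 17 of these were higher and 1 lower. With the replicate number as a block, 10 members and 5 other lysosomal genes reached it, beside 3.82% of all genes higher at that level, and 1 residual degree of freedom was left. With the numbers crossed, an alternative chosen after seeing the data, 20 members were higher and 1 lower at that level. Of all 13148 genes, 1423 (10.8%) were higher and 979 lower there. After adjustment 1 member passed, beside 0.753% of all genes. Across fits without 1 array, 5 to 24 members and 3 to 30 other lysosomal genes had an unadjusted p under 0.05, 0 to 14 members passed after adjustment (4 without intact replicate 1 and 14 without intact replicate 2, where 2.06% and 21.5% of all genes passed), and the median was 0.33 to 0.50. Without 1 array, 6 log2 fold changes changed sign: Atp6v0a1 ran from -0.090 to 1.24, Atp6v0d2 from -0.20 to 0.60, Atp6v1b2 from -0.098 to 0.19, Ids from -0.074 to 0.42, Scarb2 from -0.072 to 0.23 and Sgsh from -0.16 to 0.47. The lone array of a group is assumed there to vary like the other pair. The intact pair differed more than the splenectomized pair, which bears on the counts given earlier for fits without 1 array.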
